A study of Mus musculus with 24 samples.

Results

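Nr3c1, Txnip and Cnr2 were followed across B cell precursors that lacked or regained the transcription factors EBF1 and PAX5. They are 3 of the 24506 genes in the count table, chosen by symbol because their products are known to limit glucose use downstream of B-lineage factors. All 3 members were among the 14550 genes that passed the filter on low counts. Nr3c1 (NM_008173) lies on chromosome 18 from 39410545 to 39487245 on the minus strand of mm10. Txnip (NM_023719) lies on chromosome 3 from 96557957 to 96561857, and Cnr2 (NM_009924) lies on chromosome 4 from 135895189 to 135920219, both on the plus strand.

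RNA was sequenced from mouse fetal liver cells of the C57BL6/J background that were labelled ProB, in 7 groups of 2 libraries. Ebf1-KO cells carried the retroviral vector pMiG with Ebf1 (Ebf1-KO+Ebf1), with Pax5 (Ebf1-KO+Pax5) or empty (Ebf1-KO+empty). Pax5-KO cells carried it with Ebf1 (Pax5-KO+Ebf1), with Pax5 (Pax5-KO+Pax5) or empty (Pax5-KO+empty), and wild-type cells carried it empty (WT+empty). Every group therefore carried a vector, and all were cultured on OP9 stromal cells with interleukin-7, KIT ligand and FMS-like tyrosine kinase 3 ligand. The labels do not give fetal age, the deleted part of either gene, or whether cells were sorted for the vector, and the vector forces its gene outside its own promoter. EBF1 binding comes from a chromatin immunoprecipitation in the Abelson-transformed pre-B line 230-238, a different cell from the fetal liver cultures.

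NR3C1 is the glucocorticoid receptor, a hormone-activated transcription factor whose activation kills or arrests immature lymphocytes and lowers their glucose uptake. TXNIP is an alpha-arrestin that binds thioredoxin and drives glucose transporters off the cell surface. Its gene is switched on by glucose metabolites through the sensor proteins MLXIP (MondoA) and MLXIPL (ChREBP) with their partner MLX. CNR2 is the cannabinoid receptor of immune cells, which couples to inhibitory G proteins and is abundant in B cells. In human B cell acute lymphoblastic leukaemia, PAX5 and related B-lineage factors have been described as holding down energy supply through these 3 genes. The values here are RNA levels, and glucose use itself was not analysed.

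Libraries held 16.1 to 42.1 M (mega) exon counts, and levels are counts per M after TMM scaling (CPM). A level given with ± is a mean and SD of 2 libraries, and a log2 fold change given with ± carries its SE. Pearson's r of log2 CPM between replicates ran from 0.895, in Pax5-KO+Ebf1, to 0.971. Ebf1 exon counts stood at 244 and 282 CPM in Ebf1-KO+empty libraries, against 966 and 1100 CPM in WT+empty libraries. Pax5 stood at 20.1 and 12.3 CPM in Pax5-KO+empty libraries, against 412 and 333 CPM in WT+empty libraries. Each gene was also low in the other knockout, with Ebf1 at 315 and 241 CPM in Pax5-KO+empty and Pax5 at 2.24 and 2.49 CPM in Ebf1-KO+empty. The Ebf1 levels overlapped between the 2 knockouts, and Pax5 was lower in Ebf1-KO+empty than in Pax5-KO+empty without overlap. These levels therefore do not show which gene was deleted. With the Pax5 vector, Pax5 reached 429 and 399 CPM in Ebf1-KO+Pax5 and 746 and 440 CPM in Pax5-KO+Pax5. With the Ebf1 vector, Ebf1 reached 857 and 893 CPM in Ebf1-KO+Ebf1 and 1640 and 1480 CPM in Pax5-KO+Ebf1. The summed level of 14 early B cell marker genes was 363 and 393 CPM in Ebf1-KO+empty and 1890 and 2030 CPM in Pax5-KO+empty, against 10800 and 9900 CPM in WT+empty, and 7 of the 14 exceeded 1 CPM in Ebf1-KO+empty, where Vpreb2 and Vpreb3 were at 0, so the ProB label of that group is not borne out by these markers. The summed level of 12 myeloid marker genes was 625 and 583 CPM in Ebf1-KO+empty and 384 and 380 CPM in Pax5-KO+empty, against 38.5 and 41.4 CPM in WT+empty. Xist ran from 2450 to 10400 CPM in the 6 Pax5-KO libraries and was at most 29.6 CPM in the others, so the sex of the cells cannot be told apart from the Pax5-KO genotype. In bulk RNA, fewer cells of a type and less RNA per cell cannot be told apart.

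The 3 members differed in level and in how far they moved. Per kb of exon, Txnip averaged 66.6 CPM over the 14 libraries, above 94.2% of genes tested, Nr3c1 averaged 16.3 CPM, above 69.3%, and Cnr2 averaged 2.07 CPM, above 28.1%. The ratio of the highest library to the lowest was 1.94 for Nr3c1, 4.61 for Txnip and 12.5 for Cnr2. The SD of log2 CPM over the libraries was 0.26 for Nr3c1, a value larger than that of only 5.99% of genes tested, 0.69 for Txnip (53.3%) and 0.88 for Cnr2 (61.5%). The members did not share a pattern over the 14 libraries: Pearson's r of log2 CPM was -0.1 between Nr3c1 and Txnip, -0.31 between Nr3c1 and Cnr2, and 0.22 between Txnip and Cnr2, given as a description of libraries that share groups.

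**Figure D1:**
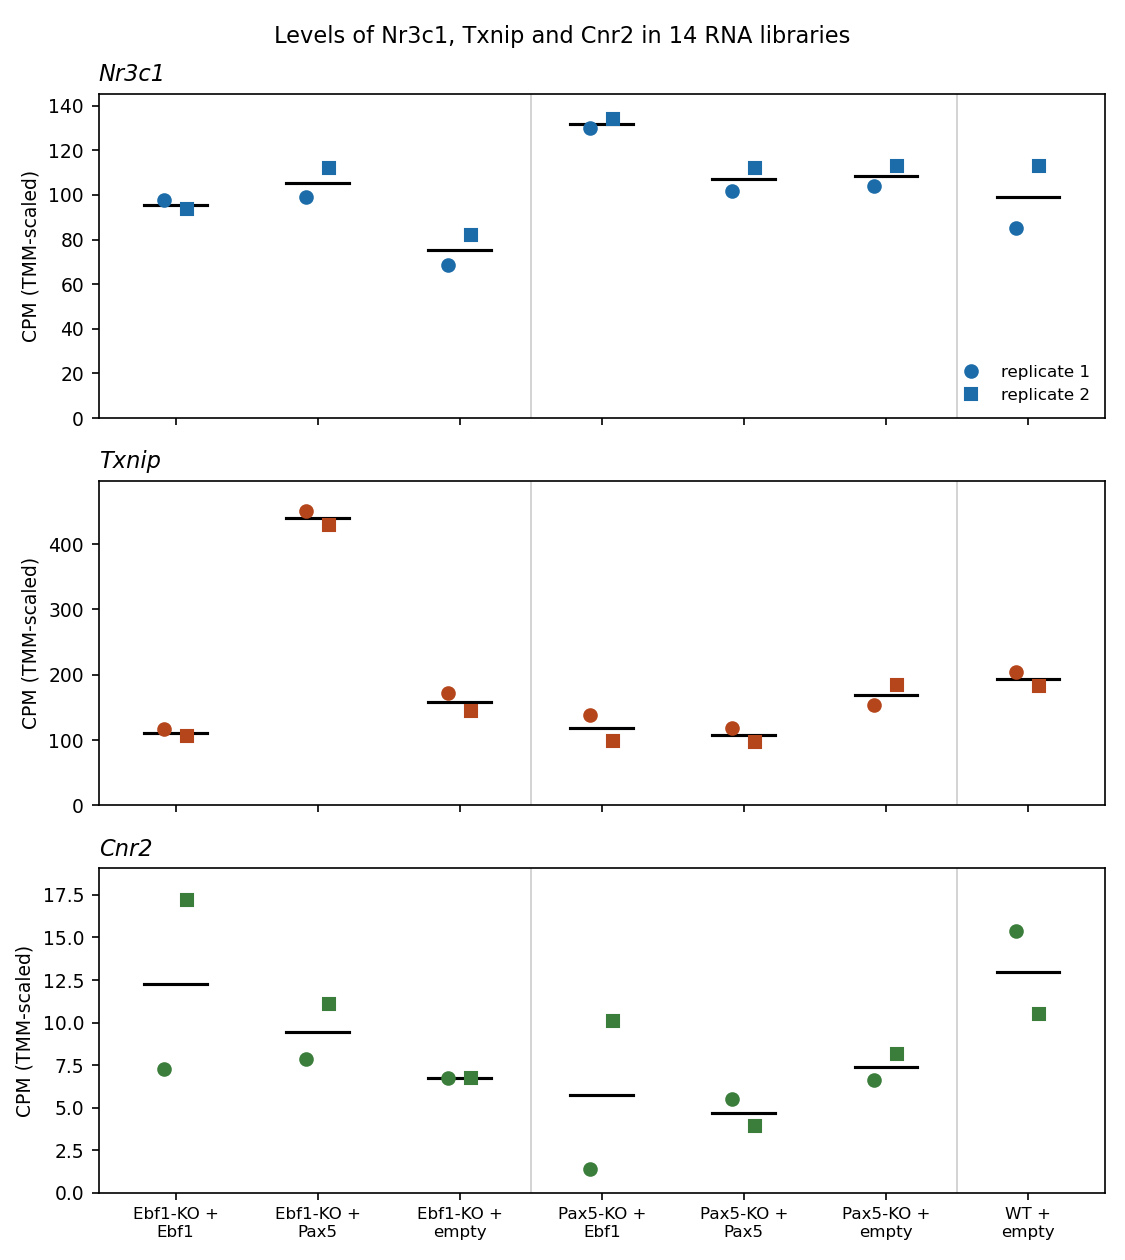
Levels of Nr3c1, Txnip and Cnr2 (CPM after TMM scaling, linear axes from 0) in the 7 groups; circles are replicate 1, squares replicate 2, and bars the mean of the 2 libraries. Both Ebf1-KO+Pax5 libraries stand at 429 CPM or more for Txnip, while every other library stands at 204 CPM or less; Nr3c1 lies between 68.8 and 134 CPM throughout, and Cnr2 between 1.38 and 17.2 CPM.

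Txnip stood apart in a single group, Ebf1-KO cells given Pax5. Its level there was 451 and 429 CPM in Ebf1-KO+Pax5, and 117 and 106 CPM in Ebf1-KO+Ebf1, against 172 and 144 CPM in Ebf1-KO+empty. In Pax5-KO cells it was 138 and 98.1 CPM with Ebf1 and 119 and 97.7 CPM with Pax5, against 154 and 185 CPM in Pax5-KO+empty. WT+empty libraries held 204 and 183 CPM. The Ebf1-KO+Pax5 libraries lay above all 12 others, and the other 3 groups with a gene-bearing vector lay below their empty-vector group without overlap. In rank, Ebf1-KO+Pax5 was followed by WT+empty, Pax5-KO+empty, Ebf1-KO+empty, Pax5-KO+Ebf1, Ebf1-KO+Ebf1 and Pax5-KO+Pax5. Ebf1-KO+Pax5 was separated from WT+empty, and Ebf1-KO+empty from Pax5-KO+Ebf1, without overlap of libraries, and the other neighbours in rank overlapped.

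The sequence around the Txnip start is shown because it holds the element through which glucose is known to act on this gene and because an EBF1 peak reaches into it. It is the 300 bases of chr3:96557707-96558006 on the plus strand (RefSeq, GRCm38.p6), 5′ to 3′, with CCAAT boxes (CCAAT on either strand, the letters bound by the factor NF-Y) and the carbohydrate response element (CACGNG, 5 further bases, CACGNG) in capitals:
Txnip promoter: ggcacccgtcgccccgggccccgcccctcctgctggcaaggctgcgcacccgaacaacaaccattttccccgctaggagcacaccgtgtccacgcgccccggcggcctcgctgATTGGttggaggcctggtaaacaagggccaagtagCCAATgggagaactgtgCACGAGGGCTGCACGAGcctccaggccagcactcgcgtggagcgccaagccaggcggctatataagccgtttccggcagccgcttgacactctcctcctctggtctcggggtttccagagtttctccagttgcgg
The carbohydrate response element, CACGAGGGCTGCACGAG at 96557872 to 96557888, begins 85 bases before the start. MondoA and ChREBP bind paired E-box-like sites of this kind with MLX. These letters occur in 16 of the 32851 promoter windows of this length in the table, or 0.0487%. The 2 CCAAT boxes begin 137 and 102 bases before the start, and 37.4% of windows hold at least 1. The window held none of these: TCCC and GGGA 2 bases apart (EBF1, 0.904% of windows), its core CCCNNGGG (13.7%), CACGTG (the MYC E-box, 7.15%), GCGTGAC (part of a PAX5 site, 2.09%), and AGAACA and TGTTCT 3 bases apart (the glucocorticoid response element, 0.00913%), each searched on both strands. A match is a match of letters and does not show binding.

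With Pax5 in Ebf1-KO cells, Txnip rose by a log2 fold change of 1.48 ± 0.21 over Ebf1-KO+empty (SE; 95% interval 1.02 to 1.94; 2.79-fold; edgeR adjusted p = 0.000901). In that comparison 4.08% of all genes tested were called, and Txnip was the only member among them. The value was 1.39 between the replicate 1 libraries and 1.58 between the replicate 2 libraries. Leaving out each library in turn gave 1.38 to 1.59, with adjusted p between 0.0071 and 0.0254. Txnip in Ebf1-KO+Pax5 was also above Ebf1-KO+Ebf1 by 1.98 ± 0.22 (3.95-fold, adjusted p = 3.72e-05; 10.2% of genes called) and above WT+empty by 1.18 ± 0.21 (2.27-fold, adjusted p = 0.00125; 16.5% called). These comparisons share the Ebf1-KO+Pax5 libraries and are not independent of each other.

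The same vector did not have this effect in Pax5-KO cells. The log2 fold change of Txnip in Pax5-KO+Pax5 over Pax5-KO+empty was -0.65 ± 0.21 (95% interval -1.1 to -0.2), which did not pass edgeR's test (adjusted p = 0.125; 4.03% of genes called) and passed DESeq2's (-0.68, adjusted p = 0.0416). The difference between the Pax5 vector's effects, Ebf1-KO minus Pax5-KO, was 2.13 ± 0.30 on the log2 scale (95% interval 1.48 to 2.77) and passed the edgeR test of the difference (adjusted p = 0.00136; 3.16% of genes called). It was 1.76 from the replicate 1 libraries and 2.5 from the replicate 2 libraries, and 2.02 to 2.27 with each of the 8 libraries left out. Nr3c1 (0.51 ± 0.29, adjusted p = 0.421) and Cnr2 (1.14 ± 1.02, adjusted p = 0.667) did not pass this test.

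The Ebf1 vector gave Txnip negative values in both knockouts, near each other on average over replicates. The log2 fold change was -0.5 ± 0.21 in Ebf1-KO+Ebf1 over Ebf1-KO+empty (95% interval -0.95 to -0.05; adjusted p = 0.36; 2.97% of genes called). It was -0.52 ± 0.21 in Pax5-KO+Ebf1 over Pax5-KO+empty (-0.97 to -0.07; adjusted p = 0.181; 3.6% called). Neither passed, and the test of their difference gave 0.02 with a 95% interval of -0.62 to 0.65 (0.612% of genes called). This difference was -0.4 from the replicate 1 libraries and 0.48 from the replicate 2 libraries, so the replicates pointed in opposite directions. Between the 2 vectors in Pax5-KO cells, Pax5 over Ebf1, the log2 fold change of Txnip was -0.12 (adjusted p = 0.774; 6.82% called). Without their own vector the knockouts did not pass against wild type either, with -0.3 for Ebf1-KO+empty (-0.75 to 0.15; adjusted p = 0.421; 14.7% called) and -0.19 for Pax5-KO+empty (-0.64 to 0.26; adjusted p = 0.61; 13.6% called).

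Against WT+empty, the other 3 vector groups were lower in Txnip. The log2 fold change was -0.8 ± 0.21 for Ebf1-KO+Ebf1 (adjusted p = 0.0236; 11.2% of genes called), -0.71 ± 0.21 for Pax5-KO+Ebf1 (adjusted p = 0.0362; 14.1%) and -0.84 ± 0.21 for Pax5-KO+Pax5 (adjusted p = 0.0258; 7.13%). All 3 share the WT+empty libraries. Ebf1-KO+Ebf1 and Pax5-KO+Pax5 lost the call when any of their 4 libraries was left out, with adjusted p up to 0.199 and 0.282. Pax5-KO+Ebf1 lost it without either WT+empty library (-0.63 and -0.78) or without its own replicate 2 (-0.49), and kept it without its replicate 1 (-0.97, adjusted p = 0.0129).

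**Figure D2:**
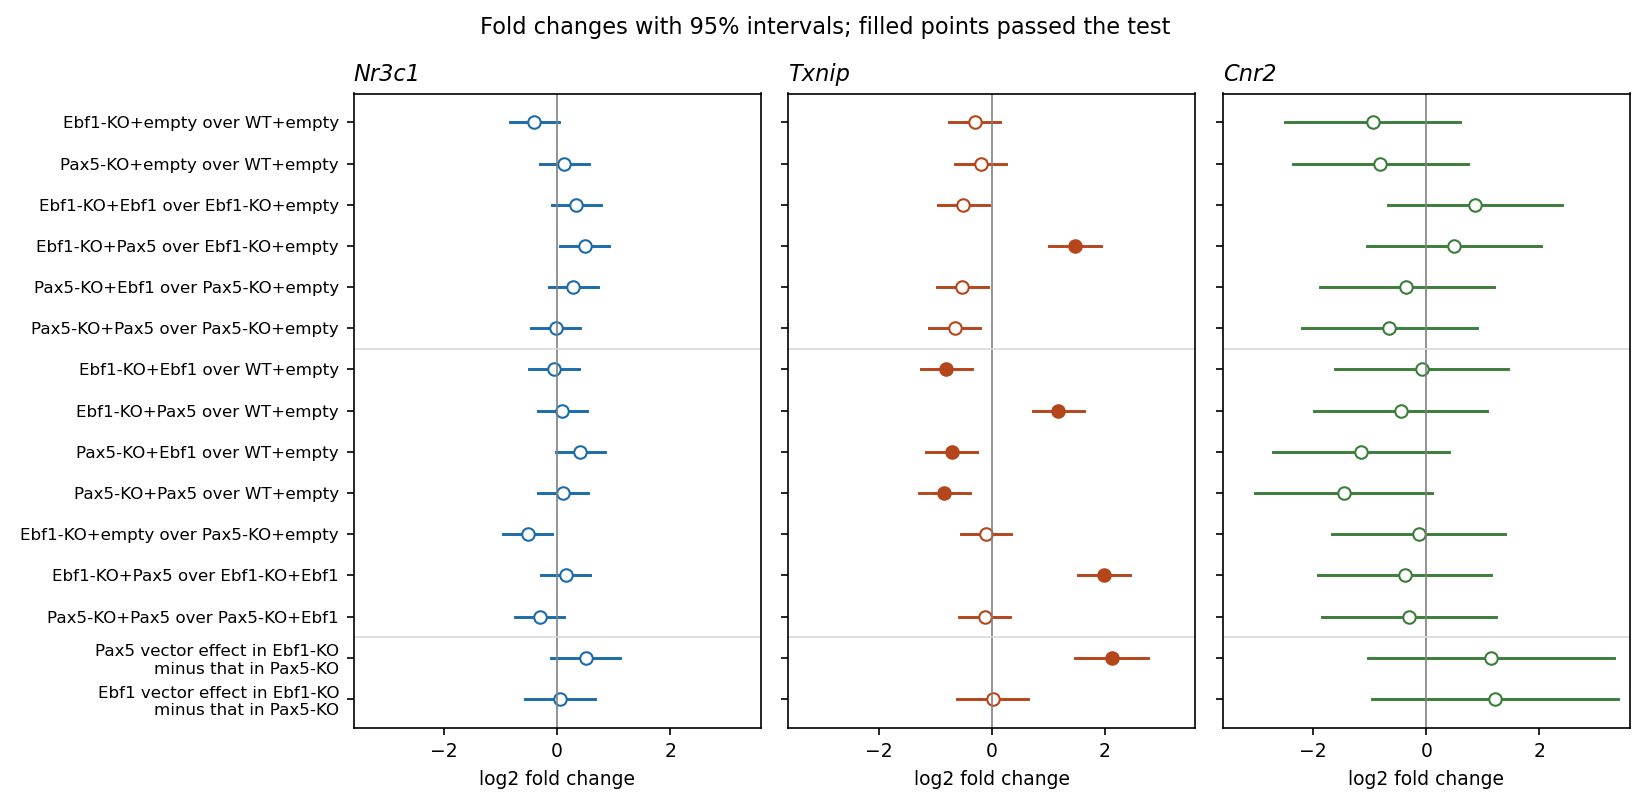
Log2 fold changes of Nr3c1, Txnip and Cnr2 in 15 comparisons (rows; numerator first), with 95% intervals from the edgeR fit over all 14 libraries; filled points passed an adjusted p of 0.05 over all genes tested. Txnip has 7 filled points, the 4 that rest on Ebf1-KO+Pax5 lying to the right at 1.18 or more and 3 lying to the left; Nr3c1 and Cnr2 have none.

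A second gene covers Txnip, so part of these counts could belong to it. Gm15441, an RNA gene on the minus strand (chromosome 3, 96555768 to 96566801), spans all 3901 bases of Txnip, and the strand setting of the counts is not given in the sources used here, so reads of the 2 genes cannot be told apart. Gm15441 stood at 103 and 80.3 CPM in Ebf1-KO+Pax5, against 47 and 34.1 CPM in Ebf1-KO+empty (log2 fold change 1.17 ± 0.34, adjusted p = 0.073). Its group means ran from 21.7 to 91.4 CPM, and Txnip stood 3.64 to 5.01 times above it in each group. Nr3c1 and Cnr2 overlap no other gene of the count table.

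Marker genes of B cells and of other cells differed in level between the groups of the Txnip comparison. The summed early B cell markers were 1170 and 1270 CPM in Ebf1-KO+Pax5, against 363 and 393 CPM in Ebf1-KO+empty. Of the 14 early B cell markers, 11 exceeded 1 CPM in Ebf1-KO+Pax5 and 7 in Ebf1-KO+empty. For 10 NK and innate lymphoid markers, 9 of which exceeded 1 CPM in each group, the sums were 327 and 344 CPM in Ebf1-KO+Pax5, against 187 and 215 CPM in Ebf1-KO+empty. The 12 myeloid markers summed to 694 and 640 CPM in Ebf1-KO+Pax5 (12 over 1 CPM), against 625 and 583 CPM in Ebf1-KO+empty (11 over 1 CPM). T cell markers summed to 293 and 274 CPM in Ebf1-KO+Pax5 (7 of 10 over 1 CPM, Bcl11b at 0), against 265 and 309 CPM in Ebf1-KO+empty (8 of 10), and overlapped. OP9-type stroma markers summed to 82 and 92.6 CPM in Ebf1-KO+Pax5, against 66.1 and 73.1 CPM in Ebf1-KO+empty, with 3 of 10 over 1 CPM and Col3a1, Dcn and Lum at 0 in both groups. In Pax5-KO cells the Pax5 vector went with other sums. NK and innate lymphoid markers summed to 87.4 and 96.8 CPM in Pax5-KO+Pax5 (7 of 10 over 1 CPM, Ncr1 at 0), against 292 and 331 CPM in Pax5-KO+empty (9 of 10), lower with Pax5 where they were higher with it in Ebf1-KO cells. The same held for myeloid markers, at 113 and 148 CPM in Pax5-KO+Pax5, against 384 and 380 CPM in Pax5-KO+empty. It also held for OP9-type stroma markers, at 8.47 and 4.53 CPM in Pax5-KO+Pax5, against 10.8 and 14.9 CPM in Pax5-KO+empty. T cell markers summed to 85.4 and 78.5 CPM in Pax5-KO+Pax5, against 323 and 368 CPM in Pax5-KO+empty. Early B cell markers summed to 6050 and 6880 CPM in Pax5-KO+Pax5, against 1890 and 2030 CPM in Pax5-KO+empty. The part of these markers in the Txnip results, the difference of the Pax5 vector's effects included, was not tested.

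Nr3c1, the glucocorticoid receptor gene, stayed between 68.8 and 134 CPM in all libraries and passed none of the 15 tests by edgeR or by DESeq2. It stood at 97.7 and 93.5 CPM in Ebf1-KO+Ebf1 and 99.2 and 112 CPM in Ebf1-KO+Pax5, against 68.8 and 82 CPM in Ebf1-KO+empty. It stood at 130 and 134 CPM in Pax5-KO+Ebf1 and 102 and 112 CPM in Pax5-KO+Pax5, against 104 and 113 CPM in Pax5-KO+empty. WT+empty held 85.2 and 113 CPM. Pax5-KO+Ebf1 ranked highest and Ebf1-KO+empty lowest, and each was separated from its neighbour in rank (Pax5-KO+empty and Ebf1-KO+Ebf1) without overlap of libraries. The groups between them, from Pax5-KO+empty through Pax5-KO+Pax5, Ebf1-KO+Pax5 and WT+empty to Ebf1-KO+Ebf1, overlapped at each step.

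Values of Nr3c1 that reached an unadjusted p under 0.05 numbered 2 of 15, and both involve Ebf1-KO+empty. Such a p was reached by 16.7% of all genes tested in Ebf1-KO+Pax5 over Ebf1-KO+empty and by 12.8% in Ebf1-KO+empty over Pax5-KO+empty. The 2 values therefore do not set Nr3c1 apart. The log2 fold change was 0.49 ± 0.2 for Ebf1-KO+Pax5 over Ebf1-KO+empty (95% interval 0.05 to 0.92; edgeR adjusted p = 0.228). It was -0.52 ± 0.2 for Ebf1-KO+empty over Pax5-KO+empty (-0.96 to -0.09; adjusted p = 0.242; 4.1% of genes called). Against WT+empty, Ebf1-KO+empty had -0.4 ± 0.2 (-0.83 to 0.04) and Pax5-KO+empty 0.13 ± 0.2 (-0.31 to 0.56). The Ebf1 vector gave 0.34 ± 0.2 in Ebf1-KO cells (-0.09 to 0.78) and 0.29 ± 0.2 in Pax5-KO cells (-0.15 to 0.72), and the Pax5 vector in Pax5-KO cells gave -0.02 ± 0.2 (-0.46 to 0.41). In the 6 main comparisons these intervals exclude a change of Nr3c1 by 1 log2 unit in either direction.

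Cnr2, the cannabinoid receptor gene, was the lowest of the 3 and the most uneven between replicates, with 23 to 604 exon counts per library. It stood at 7.28 and 17.2 CPM in Ebf1-KO+Ebf1 and 7.84 and 11.1 CPM in Ebf1-KO+Pax5, against 6.73 and 6.73 CPM in Ebf1-KO+empty. It stood at 1.38 and 10.1 CPM in Pax5-KO+Ebf1, from 23 and 403 exon counts, and 5.49 and 3.91 CPM in Pax5-KO+Pax5, against 6.64 and 8.13 CPM in Pax5-KO+empty. WT+empty held 15.4 and 10.5 CPM. In rank, WT+empty came before Ebf1-KO+Ebf1, Ebf1-KO+Pax5, Pax5-KO+empty, Ebf1-KO+empty, Pax5-KO+Ebf1 and Pax5-KO+Pax5, and every neighbouring pair in that order overlapped.

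No comparison of Cnr2 passed by edgeR or DESeq2, 0 of 15 had an unadjusted p under 0.05, and the intervals were wide. Ebf1-KO+empty over WT+empty gave a log2 fold change of -0.94 ± 0.72 (95% interval -2.49 to 0.6; adjusted p = 0.462), and Pax5-KO+empty over WT+empty gave -0.81 ± 0.72 (-2.35 to 0.73; adjusted p = 0.52). Their libraries lay below both WT+empty libraries. The Ebf1 vector gave 0.87 ± 0.72 in Ebf1-KO cells (-0.68 to 2.41), with 0.11 between replicate 1 libraries and 1.35 between replicate 2 libraries. In Pax5-KO cells it gave -0.35 ± 0.72 (-1.88 to 1.19), with -2.2 and 0.31 between libraries of the same number, so the replicates pointed in opposite directions. Without Pax5-KO+Ebf1 replicate 2 this value was -2.42 (adjusted p = 0.0323), so 1 library decides whether Cnr2 is called there. The Pax5 vector gave 0.49 ± 0.72 in Ebf1-KO cells (-1.05 to 2.03) and -0.65 ± 0.72 in Pax5-KO cells (-2.2 to 0.89).

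Of the alpha-arrestins, TXNIP regulators and thioredoxin system genes, 1 was called with Txnip. In Ebf1-KO+Pax5 over Ebf1-KO+empty, the comparison in which Txnip rose, 1 of 11 alpha-arrestins and TXNIP regulators was called, against 4.08% of all genes. It was Mlxip, the MondoA gene, with 250 and 244 CPM in Ebf1-KO+Pax5, against 117 and 116 CPM in Ebf1-KO+empty (log2 fold change 1.09 ± 0.19, adjusted p = 0.00441). That call was lost without either Ebf1-KO+empty library (adjusted p up to 0.0848). Arrdc4, the arrestin most like TXNIP and another known MondoA target, had 13.1 ± 4.26 CPM in Ebf1-KO+Pax5 and 8.21 ± 0.409 CPM in Ebf1-KO+empty (SD, n = 2 each) and did not pass (0.68 ± 1.17, adjusted p = 0.859). Of the 10 thioredoxin system genes 0 were called by edgeR or DESeq2 and 2 had an unadjusted p under 0.05, beside 16.7% of all genes tested. Txn1, which encodes the thioredoxin that TXNIP binds, had 104 ± 0.029 CPM in Ebf1-KO+Pax5 and 129 ± 7.15 CPM in Ebf1-KO+empty.

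In other comparisons Mlxip was called where Txnip was not. Mlxip was lower in both knockouts than in WT+empty, with 117 and 116 CPM in Ebf1-KO+empty against 271 and 333 CPM in WT+empty (-1.38 ± 0.2, adjusted p = 0.000154), and 114 and 92.2 CPM in Pax5-KO+empty against the same libraries (-1.55 ± 0.2, adjusted p = 6.24e-05). Both calls held with each library left out, while Txnip passed in neither. In Pax5-KO cells Mlxip was higher with the Ebf1 vector (192 ± 25.2 CPM in Pax5-KO+Ebf1, against 103 ± 15.1 CPM in Pax5-KO+empty; 0.9 ± 0.19, adjusted p = 0.0191) and with the Pax5 vector (202 ± 8.47 CPM in Pax5-KO+Pax5, against 103 ± 15.1 CPM in Pax5-KO+empty; 0.98 ± 0.19, adjusted p = 0.00849), where Txnip had negative values. The Ebf1 call was lost without Pax5-KO+Ebf1 replicate 1 or Pax5-KO+empty replicate 2, and the Pax5 call without Pax5-KO+empty replicate 2 or either Pax5-KO+Pax5 library. Mlxipl, the ChREBP gene, stayed at 0.877 CPM or less in every library.

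The arrestin genes Arrdc3 and Arrdc4 differed from each other in pattern. Arrdc3, which encodes an arrestin of receptor trafficking, rose with the Ebf1 vector, with 39.1 and 37.1 CPM in Ebf1-KO+Ebf1 against 11.5 and 8.32 CPM in Ebf1-KO+empty (1.94 ± 0.38, adjusted p = 0.00843). In Pax5-KO+Ebf1 it stood at 63.6 and 41.2 CPM, against 15.2 and 11.2 CPM in Pax5-KO+empty (1.99 ± 0.38, adjusted p = 0.00998). The call in Ebf1-KO cells was lost without any of its 4 libraries (adjusted p up to 0.161) and the call in Pax5-KO cells without Pax5-KO+empty replicate 2 (0.146). Arrdc4 lay at 10.1 and 16.1 CPM in Ebf1-KO+Pax5 and at 3.57 and 4.94 CPM in Ebf1-KO+Ebf1. In Pax5-KO cells it lay at 0 and 1.03 CPM with Ebf1 and at 1.44 and 0.0566 CPM with Pax5. Beside its empty-vector group, each of these groups lay on the same side as for Txnip, without overlap of libraries, and none was called. Arrdc4 had 7.92 and 8.49 CPM in Ebf1-KO+empty and 6.31 and 6 CPM in Pax5-KO+empty, while both WT+empty libraries had 0 counts. Against a floor of 3 counts over the group it was at least 101-fold higher in Ebf1-KO+empty and at least 75-fold higher in Pax5-KO+empty, and the Pax5-KO call was lost without either WT+empty library (adjusted p up to 0.0592).

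**Figure D3:**
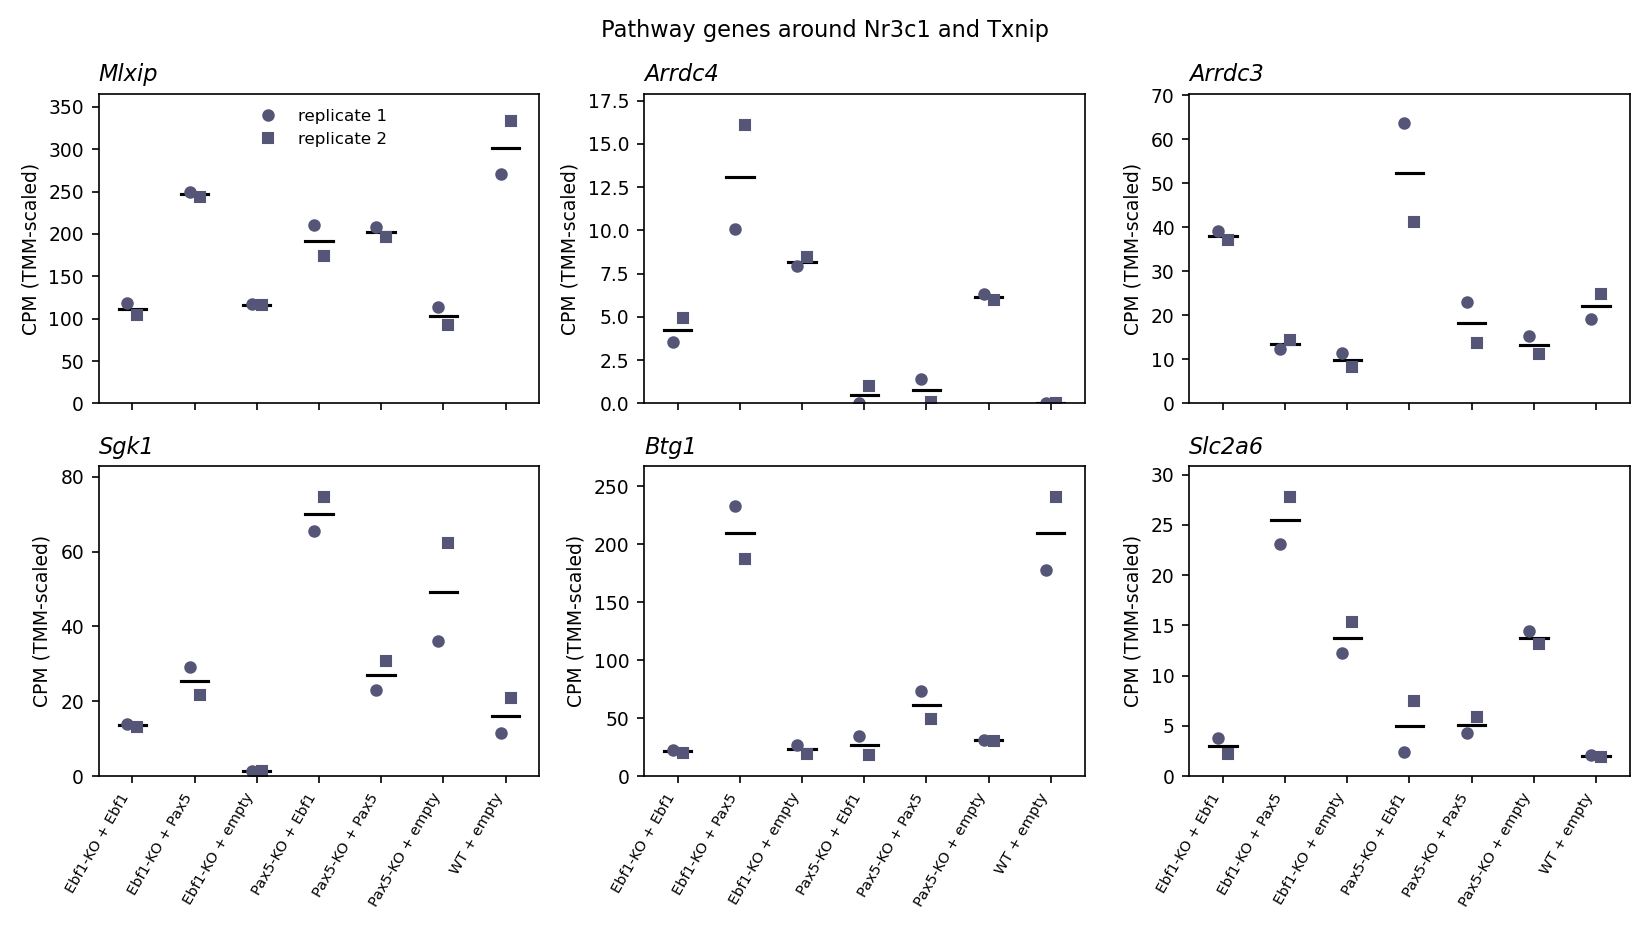
Levels (CPM after TMM scaling, linear axes from 0) of 6 pathway genes called in at least 1 main comparison and picked for display after their values were seen; circles are replicate 1, squares replicate 2, bars the mean of 2 libraries. Slc2a6 is highest in Ebf1-KO+Pax5 (23.1 and 27.8 CPM), Btg1 averages 210 CPM in Ebf1-KO+Pax5 and in WT+empty, and Arrdc3 is high in the Ebf1-vector groups.

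Around the glucocorticoid receptor, several of its known target genes were called where its own transcript was not. Of 13 targets tested, 4 rose and 0 fell in Ebf1-KO+Pax5 over Ebf1-KO+empty, where 3.15% of all genes tested rose and 0.935% fell. The median log2 fold change was 0.79 over the list and -0.01 over all genes tested. The list was chosen with earlier results of these data known, so these values are a description only. Sgk1, a kinase gene, had 29.3 and 21.7 CPM in Ebf1-KO+Pax5, against 1.42 and 1.31 CPM in Ebf1-KO+empty (4.22 ± 0.42, adjusted p = 5.2e-05). Btg1, an anti-proliferative gene, had 233 and 187 CPM in Ebf1-KO+Pax5, against 27.1 and 19.3 CPM in Ebf1-KO+empty (3.18 ± 0.33, adjusted p = 7.74e-05). Both calls held with each library left out. Zfp36, which encodes an RNA-destabilizing protein (142 ± 12.5 CPM in Ebf1-KO+Pax5, against 63 ± 6.19 CPM in Ebf1-KO+empty), and Bcl2l11, the gene of the death protein BIM (367 ± 62.9 CPM in Ebf1-KO+Pax5, against 193 ± 35.5 CPM in Ebf1-KO+empty), were called as well. Each of these 2 calls was lost without Ebf1-KO+empty replicate 1 or Ebf1-KO+Pax5 replicate 2, and that of Zfp36 also without Ebf1-KO+empty replicate 2. The target Tsc22d3 (GILZ), often read as a sign of glucocorticoid action, had 32.1 and 62.6 CPM in Ebf1-KO+Pax5, against 16.9 and 16.1 CPM in Ebf1-KO+empty, and was not called (adjusted p = 0.0595). Among 13 receptor partners the coactivator gene Ncoa2 was called (361 ± 39 CPM in Ebf1-KO+Pax5 and 202 ± 29.4 CPM in Ebf1-KO+empty; 0.84 ± 0.22, adjusted p = 0.0476), and lost the call without any of its 4 libraries.

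The same list was split in the knockouts. In Ebf1-KO+empty over WT+empty, 2 of 13 targets rose and 4 fell (median -0.79, and 0.03 over all genes, of which 14.7% were called). Fkbp5, which encodes a chaperone of the receptor, rose (173 ± 20.7 CPM in Ebf1-KO+empty, against 45.1 ± 23.8 CPM in WT+empty; 1.93 ± 0.37, adjusted p = 0.00207). Sgk1 fell (1.37 ± 0.0751 CPM in Ebf1-KO+empty, against 16.2 ± 6.56 CPM in WT+empty; -3.56 ± 0.41, adjusted p = 2.27e-05), as did Btg1 (23.2 ± 5.56 CPM in Ebf1-KO+empty, against 210 ± 44.4 CPM in WT+empty; -3.18 ± 0.33, adjusted p = 8.78e-06). Zfp36 fell as well (63 ± 6.19 CPM in Ebf1-KO+empty, against 212 ± 22.9 CPM in WT+empty; -1.75 ± 0.26, adjusted p = 0.000216), and these 4 calls held with each library left out. In Pax5-KO+empty over WT+empty, 2 rose and 3 fell (median -0.18, and 0.04 over all genes, of which 13.6% were called). There Btg1 fell (31 ± 0.638 CPM in Pax5-KO+empty, against 210 ± 44.4 CPM in WT+empty; -2.76 ± 0.33, adjusted p = 3.54e-05), with each library left out as well. Sgk1 was higher (49.1 ± 18.5 CPM in Pax5-KO+empty, against 16.2 ± 6.56 CPM in WT+empty; 1.6 ± 0.37, adjusted p = 0.0089), and its call was lost without WT+empty replicate 1 or Pax5-KO+empty replicate 2. Of 13 receptor partners, such as chaperones and coactivators, 1 rose and 1 fell in each of these comparisons. The partner that rose was Fkbp5 both times, which is on both lists and is already counted among the targets. Among the targets, Sgk1 rose with the Ebf1 vector in Ebf1-KO cells (13.6 ± 0.529 CPM in Ebf1-KO+Ebf1, against 1.37 ± 0.0751 CPM in Ebf1-KO+empty; 3.31 ± 0.41, adjusted p = 0.000199), and it was the only target called there.

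The Pax5 vector's effect on Sgk1 differed between the knockouts, as it did for Txnip. The difference, Ebf1-KO minus Pax5-KO, was 5.09 ± 0.55 for Sgk1 (adjusted p = 0.000237), and it passed with each of the 8 libraries left out. Tsc22d3 (3.18 ± 0.6, adjusted p = 0.00951) and Btg1 (2.19 ± 0.44, adjusted p = 0.0143) passed too, but Tsc22d3 was lost without Ebf1-KO+empty replicate 1, Pax5-KO+empty replicate 2 or Pax5-KO+Pax5 replicate 2, and Btg1 without Ebf1-KO+empty replicate 2 or Pax5-KO+Pax5 replicate 2. Tsc22d3 in Pax5-KO+empty stood at 34 and 92.6 CPM, so its replicates were far apart.

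With the Pax5 vector in Ebf1-KO cells, genes of glucose uptake, its first enzymes and insulin-like signalling had a higher median than all genes, and 1 passed by edgeR. Of all genes tested, 4.08% were called there. In Ebf1-KO+Pax5 over Ebf1-KO+empty, 1 of 14 was called, Igf1r, a growth factor receptor gene (54.7 ± 1.24 CPM in Ebf1-KO+Pax5, against 25.8 ± 1.48 CPM in Ebf1-KO+empty; 1.09 ± 0.23, adjusted p = 0.016), and the call was lost without any of the 4 libraries. The list's median was 0.7, against -0.01 over all genes. DESeq2 called 5 of the 14, and 1199 genes over the whole table. An unadjusted edgeR p under 0.05 was reached by 6 of the 14, beside 16.7% of all genes tested. The glucose transporter gene Slc2a1 did not pass (65.6 ± 15 CPM in Ebf1-KO+Pax5, against 55.3 ± 8.94 CPM in Ebf1-KO+empty; 0.25 ± 0.27), nor did the transporter gene Slc2a3 (69.8 ± 10.3 CPM in Ebf1-KO+Pax5, against 44 ± 0.375 CPM in Ebf1-KO+empty; 0.67 ± 0.3) or the hexokinase gene Hk2 (32.1 ± 10.4 CPM in Ebf1-KO+Pax5, against 49.2 ± 9.64 CPM in Ebf1-KO+empty; -0.62 ± 0.3). These 3 were chosen for their place in glucose uptake, outside the rule for named genes, and are not the genes of the list that moved most. Insr had 266 and 202 CPM in Ebf1-KO+Pax5, against 138 and 112 CPM in Ebf1-KO+empty. Akt2 had 96 and 87.2 CPM in Ebf1-KO+Pax5, against 46.3 and 48.6 CPM in Ebf1-KO+empty. Irs1 went the other way, with 21.2 and 38.8 CPM in Ebf1-KO+Pax5, against 66.1 and 54.5 CPM in Ebf1-KO+empty. None of these was called by edgeR. In the knockouts, 1 of 14 rose and 2 fell in Ebf1-KO+empty, and 3 rose and 2 fell in Pax5-KO+empty, both over WT+empty, beside 14.7% and 13.6% of all genes called. DESeq2 called 6 and 7 of the 14 there, but those shares are edgeR's. DESeq2's own share over all genes is not given for these comparisons, so its counts have no background here. An unadjusted edgeR p under 0.05 was reached by 9 and 8, beside 26.7% of all genes tested in each comparison.

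In both knockouts the insulin-like signalling genes Igf1r and Irs1 were lower than in wild type. Igf1r had 25.8 ± 1.48 CPM in Ebf1-KO+empty (-2.78 ± 0.24) and 69.7 ± 1.84 CPM in Pax5-KO+empty (-1.35 ± 0.23), against 178 ± 3.36 CPM in WT+empty. Irs1, an insulin receptor substrate gene, had 60.3 ± 8.17 CPM in Ebf1-KO+empty (-1.51 ± 0.28) and 16.9 ± 2.28 CPM in Pax5-KO+empty (-3.35 ± 0.31), against 172 ± 24.3 CPM in WT+empty. All 4 calls held with each library left out. Slc2a6, a transporter of the same family, was higher, with 13.7 ± 2.19 CPM in Ebf1-KO+empty and 13.7 ± 0.914 CPM in Pax5-KO+empty, against 2.01 ± 0.0894 CPM in WT+empty, a log2 fold change of 2.77 ± 0.58 in each comparison. Its Pax5-KO call was lost without WT+empty replicate 2 (adjusted p = 0.0515).

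Of 14 genes of the LKB1 and AMPK energy sensor, 0 rose and 2 fell in Ebf1-KO+empty over WT+empty, a share near the 14.7% of all genes called there. In this list 0 were called in Pax5-KO+empty over WT+empty by edgeR, by DESeq2 or at an unadjusted p under 0.05. Over all genes tested, edgeR called 13.6% there, and 26.7% had an unadjusted p under 0.05. Prkaa2, which encodes an AMPK catalytic subunit, had 0 counts in both Ebf1-KO+empty libraries, against 7.15 and 17.6 CPM in WT+empty, and was at least 205-fold lower against the floor of 3 counts over the group. Its highest library among Ebf1-KO cells, with or without a gene-bearing vector, stood at 0.599 CPM. Sesn3, a stress-induced activator of AMPK, fell in Ebf1-KO+empty (16.1 ± 4.69 CPM in Ebf1-KO+empty, against 55.6 ± 8.45 CPM in WT+empty; -1.78 ± 0.3, adjusted p = 0.000719). It was the 1 gene of this list that rose with the Pax5 vector in Ebf1-KO cells (46.7 ± 3.92 CPM in Ebf1-KO+Pax5, against 16.1 ± 4.69 CPM in Ebf1-KO+empty; 1.53 ± 0.3, adjusted p = 0.00839), a call lost without Ebf1-KO+empty replicate 1.

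Around Cnr2, 1 of 14 endocannabinoid genes rose and 2 fell in Ebf1-KO+empty over WT+empty, and 2 rose and 0 fell in Pax5-KO+empty over WT+empty. These counts stand beside 14.7% and 13.6% of all genes called and single out no change of the list. Faah, which encodes the enzyme that breaks down anandamide, had 9.33 and 9.81 CPM in Ebf1-KO+empty, from 488 counts, and 4.69 and 4.91 CPM in Pax5-KO+empty, from 267 counts, against 1 count in both WT+empty libraries together. Its call held with each library left out in Ebf1-KO+empty and was lost without WT+empty replicate 2 in Pax5-KO+empty (adjusted p = 0.0708). Cnr1, the brain cannabinoid receptor gene, did not pass the filter and stayed at 0.104 CPM or less. With the vectors, edgeR called 0 of 14 in Ebf1-KO+Ebf1, Ebf1-KO+Pax5 and Pax5-KO+Ebf1 over their empty-vector groups, beside 2.97%, 4.08% and 3.6% of all genes. DESeq2 called 0 or 1 in these 3 comparisons. An unadjusted edgeR p under 0.05 was reached by 0 or 1, beside 11.1%, 16.7% and 20.7% of all genes. In Pax5-KO+Pax5 over Pax5-KO+empty, 1 of 14 fell, beside 4.03% of all genes called. The edgeR counts are near these shares and single out no change of the list. The 1 gene was the lipid receptor gene Gpr18 (9.27 ± 3.15 CPM in Pax5-KO+Pax5, against 40.8 ± 22.4 CPM in Pax5-KO+empty), whose span overlaps Ubac2. Its call was lost without Pax5-KO+empty replicate 2 or either Pax5-KO+Pax5 library.

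The remaining list counts were small, beside 2.97%, 3.6% and 4.03% of all genes called in Ebf1-KO+Ebf1, Pax5-KO+Ebf1 and Pax5-KO+Pax5 over their empty-vector groups. In Ebf1-KO+Ebf1 over Ebf1-KO+empty, only Sgk1 and Arrdc3 were called over the 7 lists. In Pax5-KO+Ebf1 over Pax5-KO+empty, Arrdc3, Mlxip and Irs1 rose and Hsd11b1, the gene of the enzyme that regenerates active glucocorticoid, fell (3.46 ± 1.73 CPM in Pax5-KO+Ebf1, against 19.2 ± 1.82 CPM in Pax5-KO+empty; -2.49 ± 0.58, adjusted p = 0.0282). In Pax5-KO+Pax5 over Pax5-KO+empty, Mlxip rose and Tsc22d3 and Gpr18 fell. Each of these Pax5-KO calls was lost with at least 1 library left out. In the knockouts, 1 of 10 thioredoxin system genes rose in Ebf1-KO+empty and 3 rose in Pax5-KO+empty over WT+empty. Beside these counts, 8.02% and 8.65% of all genes tested rose. Among the 3 was Txn1, at 184 ± 25.8 CPM in Pax5-KO+empty, against 95.5 ± 0.141 CPM in WT+empty (0.94 ± 0.2, adjusted p = 0.00471). That call was lost without Pax5-KO+empty replicate 2.

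The genes whose levels most resembled each member over the 14 libraries were named by Pearson's r of log2 CPM, as a description. Txnip had the closest neighbours: Iqgap1 (r = 0.953, 433 to 828 CPM), Gm15441 (0.942), Ctso (0.931, 9.33 to 37.7 CPM), Arhgef2 (0.928, 64 to 181 CPM) and Atp6v0a1 (0.918, 6.48 to 58.1 CPM), and 12 genes exceeded 0.9. Gm15441 covers Txnip and Atp6v0a1 overlaps Mir6928. For Nr3c1 the nearest were Elmo1 (0.899), Sgk1 (0.899), 9130221H12Rik (0.877), Edc4 (0.875) and Pde5a (0.872). For Cnr2 they were Btrc (0.878), Wdr45b (0.861), 4931414P19Rik (0.859), Rita1 (0.844) and Ccdc117 (0.842), and for these 2 members no gene exceeded 0.9. The libraries share groups, depth and replicate number, and the choice depends on the measure: by Spearman's rho, 2 of the 5 neighbours of Nr3c1, 1 of 5 of Txnip and 1 of 5 of Cnr2 were the same.

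EBF1 peaks lay near all 3 members in the pre-B line, as they did near most genes. A peak was counted when it lay in the gene or its centre was within 100 kb of the start; score and fold over control are the authors' own values for each peak. The list holds 17230 peaks of 320 bases with a median score of 41 and a median fold of 12.3. Nr3c1 had 4 peaks, Txnip 7 and Cnr2 5, and 85.6% of the genes tested had at least 1, with a median of 3. At least as many peaks were near 45.5% of genes for Nr3c1, 19.2% for Txnip and 35.1% for Cnr2. Within 50 kb or in the gene, Nr3c1 had 3 peaks, Txnip 7 and Cnr2 4, and at least as many were near 34.8%, 4.81% and 22.1% of genes in that order. Within 10 kb or in the gene each member had 3, and 8.67% of genes had at least 3.

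**Figure D4:**
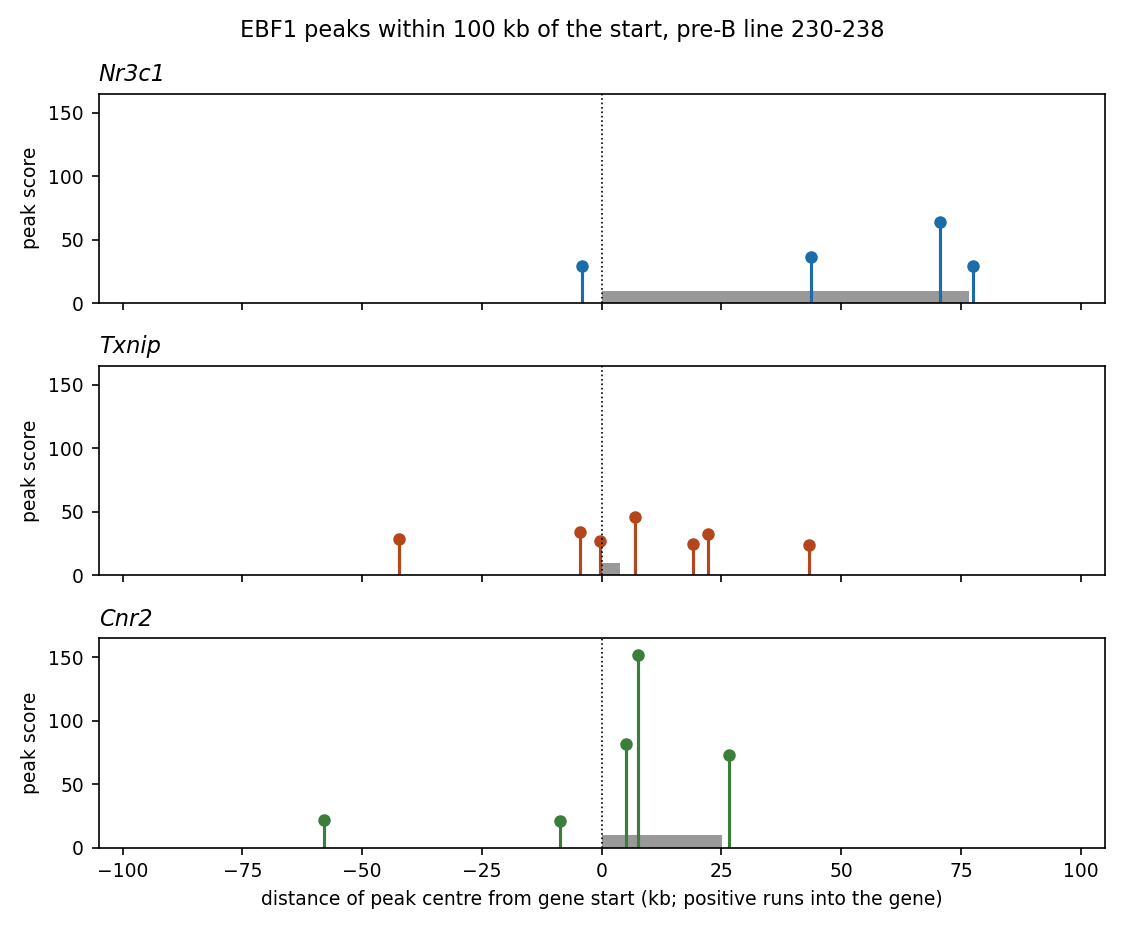
EBF1 peaks of the pre-B line 230-238 near Nr3c1, Txnip and Cnr2: distance of the peak centre from the gene start in kb (positive values run into the gene; the grey bar is the gene's length) against the authors' peak score. Cnr2 has the highest peak, score 152 at 7.58 kb inside the gene; all 7 peaks near Txnip score 46 or less.

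At Txnip, the peak nearest to the start was centred 293 bases before it (chromosome 3, 96557504 to 96557824), with a score of 27, higher than 22.4% of peaks, and a fold of 5.27. It covers the first 118 bases of the promoter printed above, including the first CCAAT box, and ends 133 bases before the start, short of the carbohydrate response element. An EBF1 peak overlapped 8.14% of the 32851 promoter windows. Others lay 4.6 kb before the start (score 34) and 6.87 kb after it (score 46), the second nearer to the start of Gm15441 than to that of Txnip. The other 4 lay 19 to 43.2 kb away, each nearer to another gene's start.

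At Cnr2, the peaks inside the gene scored higher. The peak 7.58 kb after the start (chromosome 4, 135902611 to 135902931) had a score of 152, higher than 93.7% of peaks, and a fold of 34.4. A second peak 5.04 kb after the start had a score of 82 and the largest fold near any member, 53.6. A peak 26.6 kb after the start scored 73 and lay nearest to the start of Fuca1, and peaks 8.75 and 57.9 kb before the start scored 21 and 22. The Cnr2 promoter windows, at chr4:135894939-135895238 and chr4:135911430-135911729, overlapped no peak. At Nr3c1, peaks inside the gene lay 43.7 kb (score 36) and 70.5 kb (score 64, fold 18.7) after the start, and peaks outside it 4.11 kb before the start and 77.4 kb after it scored 29 each; the peak before the start lies inside the longer RefSeq gene, which ends at 39519421.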

How the data were processed

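Each gene's RNA value was a raw exon read count that the authors obtained with HOMER (exon counting, transcripts condensed to genes, no adjustment; mm10), per the file headers. Per the submitters' processing notes, tools included STAR 2.6.0b-1, HOMER 4.8 and Bowtie2 2.3.4.2 and 2.3.5, with no roles given. EBF1 peaks were called from replicates compared by IDR, per the labels. The deposited peak list gives a tag count scaled by the authors, which is a signal, the authors' score and the authors' fold, a ratio to control. Contact profiles at Myc were not used here.

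Tests used edgeR 4.0.16 in R 4.3.3: TMM scaling, filterByExpr, 1 quasi-likelihood fit over 7 groups of 2 libraries, and Benjamini-Hochberg adjusted p over 14550 genes with a threshold of 0.05. Every adjusted p is from this test unless DESeq2 (1.42.0) is named. Log2 CPM used a prior count of 2. The code was tested on simulated data. Leaving out a library leaves 1 in its group, which is assumed to vary like the others. No label states that replicates were separate cultures; the p-values measure the spread between these samples only, and that spread may be technical. Intervals are 95% intervals of the fit, and folds against a group with 0 counts used a floor of 3 counts over the group, which covers counting error only. Chi-square per degree of freedom between replicates was 69.9 to 310, far above sampling noise. For Pax5-KO+empty, the column that carries no number was used as replicate 1 because the other is numbered 2, and 0 sample columns were left unused. A tag in the column names parts libraries by replicate number; the sources do not say what it marks, and values between libraries of the same number are given beside the main results.

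The members, the 7 gene lists and the marker lists were chosen with earlier results of these data known. Named genes were the members, up to 3 called genes per list, direction and main comparison with the smallest adjusted p, the 5 genes closest to each member, and Ebf1 and Pax5. Alternatives were median-of-ratios scaling, no filter, DESeq2, a replicate block, fits of only the groups compared, leaving out each library, raw library sizes, other peak windows, the upper part of the peak list by score, and other correlation measures.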

Additional observations from a re-analysis of the deposited data

Results flagged for a closer look

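The effect of the Pax5 vector on Txnip differed between the knockouts by a test of the difference itself. Txnip had 451 and 429 CPM in Ebf1-KO+Pax5 and 172 and 144 CPM in Ebf1-KO+empty, while it had 119 and 97.7 CPM in Pax5-KO+Pax5 and 154 and 185 CPM in Pax5-KO+empty. The difference between the 2 log2 fold changes was 2.13 ± 0.30 (edgeR adjusted p = 0.00136; 2 of 2 replicate numbers positive, at 1.76 and 2.5), and the gene Gm15441, whose reads cannot be told apart from those of Txnip, had 1.86 ± 0.48 (adjusted p = 0.051). Myeloid markers summed to 694 and 640 CPM in Ebf1-KO+Pax5 and 625 and 583 CPM in Ebf1-KO+empty, and to 113 and 148 CPM in Pax5-KO+Pax5 and 384 and 380 CPM in Pax5-KO+empty. NK and innate lymphoid markers summed to 327 and 344 CPM in Ebf1-KO+Pax5 and 187 and 215 CPM in Ebf1-KO+empty, and to 87.4 and 96.8 CPM in Pax5-KO+Pax5 and 292 and 331 CPM in Pax5-KO+empty. The sums of the myeloid, the NK and innate lymphoid and the OP9-type stroma markers ran the same way as Txnip. Early B cell markers were higher with the Pax5 vector in both knockouts. T cell markers overlapped in Ebf1-KO cells and were lower with Pax5 in Pax5-KO cells. The part of these markers in the result was not tested.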

How the results depend on the processing

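Of 429 alternatives to the 45 member tests, 413 kept the call and direction, 12 lost a call, 4 gained one and 0 reversed. The Txnip calls that rest on Ebf1-KO+Pax5 held in every alternative run. Txnip in Ebf1-KO+Ebf1, Pax5-KO+Ebf1 and Pax5-KO+Pax5 over WT+empty ranged from -0.87 to -0.71, -0.97 to -0.49 and -0.98 to -0.72 with 1 library left out, and Pax5-KO+Ebf1 lost its call with only the groups compared (-0.69). Txnip in Pax5-KO+Pax5 over Pax5-KO+empty was called by DESeq2 (-0.68). With 1 library left out, Cnr2 ranged from -2.42 to 0.46 in Pax5-KO+Ebf1 over Pax5-KO+empty, -3.23 to -0.35 in Pax5-KO+Ebf1 over WT+empty and 0.42 to 3.29 in the difference of the Ebf1 vector's effects, each called only without Pax5-KO+Ebf1 replicate 2. The cause was not tested.

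With raw library sizes, Nr3c1 in Pax5-KO+Ebf1 was 122 CPM, Txnip in Ebf1-KO+Pax5 473 and Cnr2 in Ebf1-KO+empty 7.18. Peaks counted within 10 kb or in the gene were 3 for Txnip and 3 for Cnr2, and in the upper part of the list by score 1 for Nr3c1, 1 for Txnip and 3 for Cnr2. By group means, 3, 2 and 0 of the 5 nearest genes of Nr3c1, Txnip and Cnr2 were the same, and by Spearman's rho 2, 1 and 1.

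Counts of called genes over the whole table moved more. Without the filter on low counts, which tests more genes, they were 711 (Ebf1-KO+Ebf1 over Ebf1-KO+empty), 1002 (Ebf1-KO+Pax5 over Ebf1-KO+empty), 1230 (Pax5-KO+Ebf1 over Pax5-KO+empty), 1043 (Pax5-KO+Pax5 over Pax5-KO+empty), 1604 (Pax5-KO+Pax5 over WT+empty), 978 (Ebf1-KO+empty over Pax5-KO+empty), 1732 (Pax5-KO+Pax5 over Pax5-KO+Ebf1), and 940 and 269 for the differences of the Pax5 and Ebf1 vectors' effects. DESeq2 gave 707, 1199, 1506, 1109, 1741, 999, 2023, 1147 and 224 in the same order, and 2308 for Ebf1-KO+Pax5 over Ebf1-KO+Ebf1. With only the groups compared, they were 955, 67 and 1066 for Ebf1-KO+Ebf1, Pax5-KO+Ebf1 and Pax5-KO+Pax5 over their empty-vector groups, 2472, 747 and 1802 for the same groups over WT+empty, 1153 for Ebf1-KO+empty over Pax5-KO+empty, 202 for Pax5-KO+Pax5 over Pax5-KO+Ebf1 and 859 for the difference of the Pax5 vector's effects.

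With 1 library left out, counts ranged from 1296 to 1604 and 1012 to 1614 (Ebf1-KO+empty and Pax5-KO+empty over WT+empty), 204 to 258, 159 to 357, 125 to 2228 and 222 to 395 (Ebf1-KO+Ebf1, Ebf1-KO+Pax5, Pax5-KO+Ebf1 and Pax5-KO+Pax5 over their empty-vector groups), and 879 to 1218, 1355 to 1881, 1072 to 3003 and 433 to 749 (the same 4 over WT+empty). They ranged from 303 to 438 (Ebf1-KO+empty over Pax5-KO+empty), 635 to 939 (Ebf1-KO+Pax5 over Ebf1-KO+Ebf1), 333 to 2644 (Pax5-KO+Pax5 over Pax5-KO+Ebf1), 133 to 342 (difference of the Pax5 vector's effects) and 48 to 685 (of the Ebf1 vector's). The top of each range above the main count, 2228, 3003, 2644 and 685, came without Pax5-KO+Ebf1 replicate 2, and 48 of 68 such counts moved by over 1.5 times, 0 of them without WT+empty replicate 1 or Pax5-KO+Ebf1 replicate 1. Of 328 such alternatives for named pathway genes, 111 lost a call, as did 7 of 370 others.

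Replicate numbers were not taken as pairs, because deviations of same-numbered libraries did not correlate above 0.1 in every pair of groups. They did in 13 of 15 pairs of knockout groups (0.076 to 0.236), a hint of pairing there, and in 0 of 6 pairs with WT+empty. A replicate block gave 916 calls in Ebf1-KO+Pax5 over Ebf1-KO+empty, 821 in Pax5-KO+Ebf1 over Pax5-KO+empty and 737 for the difference of the Pax5 vector's effects, and changed no member call (Txnip in Ebf1-KO+Pax5 over Ebf1-KO+empty 1.48, adjusted p = 0.000249). Cnr2 had the fewest counts of the members, 23 to 604 per library, and its 1.38 and 10.1 CPM in Pax5-KO+Ebf1 came from libraries of 18.6 and 42.1 M counts.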
